A study of Mus musculus with 38 samples.

Results

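Stimulated CD4 T cells from mice labelled CD28-/- were compared with stimulated wild-type CD4 T cells, gene by gene. The comparison used 8 of the 38 libraries of the series, chosen by their labels alone: 4 of cells labelled CD28-/- (B6.CD28-/- knockout, called CD28ko-labelled below) and 4 of wild-type cells, all after 24 h of culture. Each library came from the naive CD4 T cells of a single mouse, male or female, purified from its pooled lymph nodes and spleen. Both groups were cultured on plate-bound antibodies, 0.5 µg/ml against CD3 together with 0.2 µg/ml against CD28, and the medium held interleukin-2 at 50 U/ml. The anti-CD28 was therefore present for the CD28ko-labelled cells too, and interleukin-2 was supplied from outside to every culture. No 24 h culture without these antibodies was analysed here. A pair of other group contrasts was set beside this one. The first is the same pair of genotypes before culture (naive, 4 CD28ko-labelled and 4 wild-type libraries). The other is 3 libraries of stimulated rescue cells against 4 of stimulated T1792tg/tg cells. Both of those genotypes carry Cre recombinase driven by Cd4 and a Rosa26 transgene that it switches on for the miR-17~92 microRNA cluster, and rescue cells are CD28-/- besides.

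CD28 is the receptor that gives naive T cells their chief costimulatory signal. When it binds CD80 or CD86 on an antigen-presenting cell, its cytoplasmic tail recruits PI3K and adaptor proteins, and the signal adds to that of the T cell receptor by raising AP-1, NF-kB and AKT activity. It is known above all for interleukin-2 production, for survival through BCL-xL, for glucose uptake, and for the formation of regulatory T cells in the thymus. The T cell receptor alone can still drive calcineurin and NFAT, and NFAT without its AP-1 partner is linked to an unresponsive state called anergy.

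Levels are counts per 1000000 counts of a library (CPM), with the mean ± SD over the libraries of a group (n = 4 unless stated). CPM values depend on transcript length, so they are compared between groups and not between genes. A log2 fold change is CD28ko-labelled over wild-type, ± SE. A gene was called changed (rose or fell) where edgeR's quasi-likelihood F test gave an adjusted p (Benjamini-Hochberg over the 13650 genes tested) below 0.05. The libraries held 22.3 to 25.7 in CD28ko-labelled and 22.6 to 26.5 in wild-type cells, in units of 1000000 counts. In a principal component analysis of the 8 libraries the first axis carried 73.8% of the variance and separated the genotypes. The next axis carried 8.4% and set wild-type replicate 4 apart, at -22.57 against 5.75 to 9.70 for the other wild-type libraries. That library was also the only one of the 8 from a male mouse, as read from Xist and Y-linked genes, so sex and this library cannot be told apart. Without it 6699 genes were called, against 7029 with it, and 6519 of the 7029 calls were kept with the same sign.

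Cd28 itself (Entrez gene 12487, chr1:60746388-60773359, GRCm38.p6) had 527, 524, 598 and 506 CPM in the CD28ko-labelled libraries and 353, 292, 345 and 377 CPM in the wild-type libraries. Every CD28ko-labelled library was above every wild-type library (log2 fold change 0.66 ± 0.14, adjusted p = 0.000204). A count per gene takes in whatever transcript a targeted allele still makes, so this value does not check the label, and the groups keep the name of their label. Cd4, the coreceptor that defines the cells, had 476 ± 25.9 CPM in CD28ko-labelled cells and 505 ± 79.8 CPM in wild-type cells, a difference that did not pass the test (log2 fold change -0.08 ± 0.10, adjusted p = 0.483). Of 95 tested genes that start within 10.0 Mb of Cd28, 51 were called, or 53.68%, close to the share over all genes. In such bulk libraries fewer cells that carry a transcript and less of it per cell cannot be told apart.

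Much of the tested transcriptome differed between the genotypes, mostly by small steps. Of 13650 genes 7029 were called, or 51.5%, with 3236 higher (23.7%) and 3793 lower (27.8%) in CD28ko-labelled cells. The median log2 fold change of all tested genes was -0.03, and the median size of a called change was 0.504 on the log2 scale. Of the called genes 4044, or 57.53%, differed by less than 1.5-fold. A test for changes larger than 1.5-fold called 1395 genes, or 10.2%, with 819 higher (6.0%) and 576 lower (4.22%). The 4 and 4 libraries did not overlap in 7382 genes, or 54.1%. The counts for gene groups below are read against 23.7% higher, 27.8% lower and a median of -0.03.

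**Figure D1:**
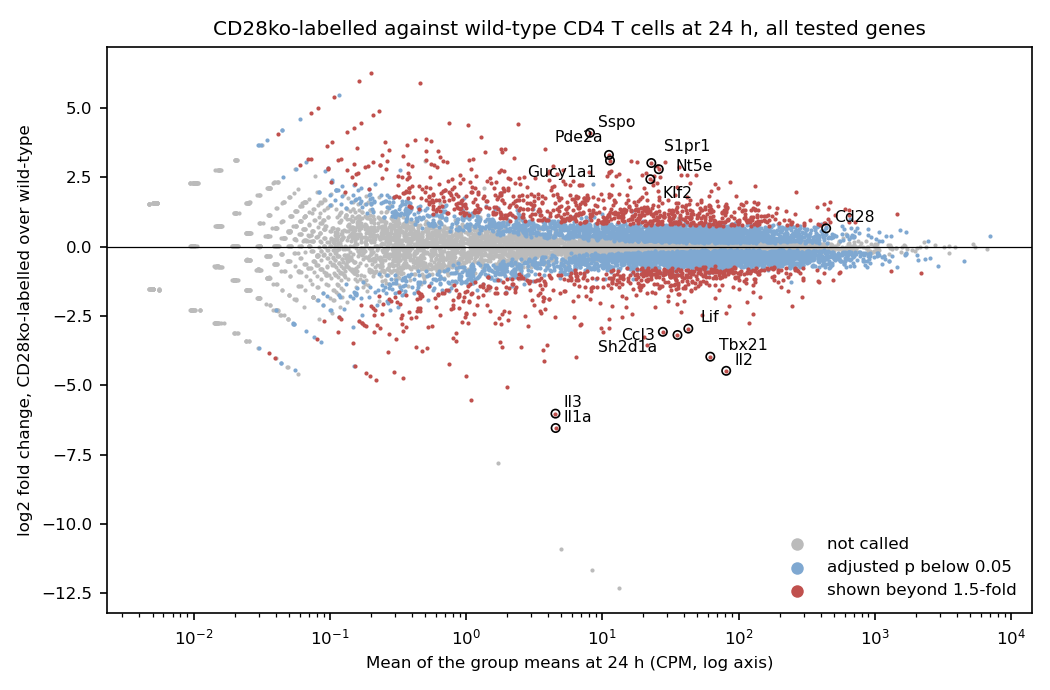
The plot shows each of the 13650 tested genes at 24 h, with the mean of the 2 group means in CPM on a log axis (x) and the log2 fold change of CD28ko-labelled over wild-type cells (y). Red points passed the test for changes beyond 1.5-fold, 819 above and 576 below the line at 0, and Il2 and Il3 lie among the lowest labelled points. The lowest grey points are Y-linked genes that had counts in the male wild-type library.

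The interleukin-2 gene carried the best known deficit. Its promoter is where the costimulatory signal was first mapped, and it is printed here because Il2 is the target gene that the CD28 response element is named for. The sequence is from RefSeq on GRCm38.p6, chr3:37125905-37126204 on the minus strand, from 250 bases before to 50 bases after the start of the gene. Capitals mark matches to the core of the CD28 response element (AGAAATTCC) and to the NFAT core GGAAA, which on the other strand reads TTTCC.
Il2 promoter: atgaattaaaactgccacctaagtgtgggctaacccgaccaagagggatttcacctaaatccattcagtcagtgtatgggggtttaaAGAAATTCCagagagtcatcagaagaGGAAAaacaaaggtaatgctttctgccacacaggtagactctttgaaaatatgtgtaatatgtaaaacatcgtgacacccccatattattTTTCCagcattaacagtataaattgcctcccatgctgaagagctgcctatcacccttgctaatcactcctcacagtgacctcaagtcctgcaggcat
The AGAAATTCC match runs from -163 to -155 relative to the gene start, and the GGAAA matches lie at -137 to -133 and, on the other strand, at -47 to -43. No match to the AP-1 motif TGANTCA was found in these 300 bases, which says nothing about AP-1 binding. Both strands of 32851 promoters of this length were searched. AGAAATTCC was found in 95 of them (0.289%), GGAAA in 61.3% and TGANTCA in 7.81%. Among the 13 genes with a promoter sequence out of the 15 largest decreases described below, GGAAA was found in 10, TGANTCA in 5 and AGAAATTCC in Il2 alone. Among 14 with a sequence out of the 15 largest increases, GGAAA was found in 10 and the other motifs in 0.

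Il2 had 7.07, 6.43, 7.51 and 6.83 CPM in the CD28ko-labelled libraries and 125, 159, 155 and 183 CPM in the wild-type libraries. The groups lie far apart, with a 22.3-fold lower mean (log2 fold change -4.48 ± 0.20, adjusted p = 8.58e-19). The receptor chains did not follow it in size. Il2ra, the high-affinity alpha chain, had 546 ± 10.7 CPM in CD28ko-labelled cells and 641 ± 14.5 CPM in wild-type cells and was called lower (log2 fold change -0.23 ± 0.10), but missed the threshold whichever of the 8 libraries was left out (adjusted p from 0.0523 to 0.0835). The signalling chain Il2rb fell (log2 fold change -0.51 ± 0.09). Il2rg, the chain shared with other cytokine receptors, rose (0.35 ± 0.08), as did Jak1, the kinase bound to Il2rb (0.76 ± 0.07), and Stat5b (0.28 ± 0.07). Jak3, the kinase bound to Il2rg, and Stat5a had log2 fold changes of -0.11 ± 0.08 and 0.09 ± 0.10, which did not pass the test.

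Genes that interleukin-2 and STAT5 are known to induce were mostly lower, although interleukin-2 was in the medium of both groups. In the list of interleukin-2, its receptor and STAT5 readouts, 4 of 17 tested members rose and 10 fell, with a median log2 fold change of -0.37. Part of this list was already lower before culture. In naive cells 0 of the 17 members were higher and 8 lower, with a median of -0.35. Cish, a feedback inhibitor of cytokine receptors, had 71 ± 5.71 CPM in CD28ko-labelled cells and 135 ± 13.3 CPM in wild-type cells (log2 fold change -0.93 ± 0.15). The related inhibitors Socs1 and Socs2 fell as well (-1.20 ± 0.17 and -1.04 ± 0.20). Lta, the gene of lymphotoxin alpha, had 51.3 ± 2.17 CPM in CD28ko-labelled cells and 102 ± 10.3 CPM in wild-type cells (-0.99 ± 0.12). Pim2 and Pim1, survival kinases, changed by -0.68 ± 0.08 and -0.37 ± 0.10, and Osm, the cytokine oncostatin M, by -0.50 ± 0.11. Socs3 had a log2 fold change of -0.15 ± 0.16 and did not pass the test. Bcl6, a repressor that STAT5 is known to hold down, rose to 18.8 ± 2.65 CPM in CD28ko-labelled cells, against 9.8 ± 1.13 CPM in wild-type cells (0.94 ± 0.11).

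Other cytokines fell in most cases where they were called. In the cytokine list 4 of 19 tested members rose and 8 fell, with a median log2 fold change of -1.17. Il3, a growth factor of mast cells and myeloid progenitors, had 0.293, 0.0431, 0.201 and 0 CPM in the CD28ko-labelled libraries and 5.88, 11.8, 9.59 and 8.5 CPM in the wild-type libraries. It was nearly silent in all CD28ko-labelled libraries, with 13 counts over the group against 901 in wild-type cells (log2 fold change -6.02 ± 0.47, adjusted p = 8.19e-10). Lif, a cytokine of the interleukin-6 family, had 8.58, 11.3, 9.6 and 9.51 CPM in the CD28ko-labelled libraries and 62.3, 83.6, 85.5 and 72.1 CPM in the wild-type libraries, with no overlap (log2 fold change -2.96 ± 0.16). Ifng, the gene of interferon gamma, had 1.59, 1.81, 1.61 and 2.04 CPM in the CD28ko-labelled libraries and 8.9, 20.9, 10.6 and 8.02 CPM in the wild-type libraries. Its level fell (log2 fold change -2.78 ± 0.41, adjusted p = 7.2e-07) with a wide spread among the wild-type libraries. Tnf, an inflammatory cytokine, had 18.1 ± 0.937 CPM in CD28ko-labelled cells and 51.8 ± 7.33 CPM in wild-type cells (log2 fold change -1.52 ± 0.17). Il4, the T helper 2 cytokine, was low in both groups, with 0.357 ± 0.122 CPM in CD28ko-labelled cells and 0.711 ± 0.401 CPM in wild-type cells, and did not pass the test, but was called lower without wild-type replicate 4 (adjusted p = 0.0277). Some cytokine genes rose: Ltb, the membrane partner of lymphotoxin alpha, reached 147 ± 14.7 CPM in CD28ko-labelled cells, against 56.3 ± 7.17 CPM in wild-type cells (log2 fold change 1.38 ± 0.11), and Il16, which is made from a large precursor in resting lymphocytes, had a log2 fold change of 0.86 ± 0.09. Xcl1, a chemokine for cross-presenting dendritic cells, also rose (0.74 ± 0.17).

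Among chemokines and their receptors 2 of 17 tested members rose and 7 fell, with a median log2 fold change of -0.82. Ccl3, an inflammatory chemokine, had 6.03, 6, 5.99 and 5.62 CPM in the CD28ko-labelled libraries and 39.5, 61, 52.9 and 45.6 CPM in the wild-type libraries. Its 8.43-fold lower mean had almost no spread among the CD28ko-labelled libraries (log2 fold change -3.08 ± 0.28). Ccl4, a related chemokine, had 25.8 ± 3.26 CPM in CD28ko-labelled cells and 135 ± 18.6 CPM in wild-type cells (log2 fold change -2.39 ± 0.26). Ccr8, a skin and tissue homing receptor, fell (-1.85 ± 0.21), while Ccr7, the lymph node homing receptor, rose to 729 ± 66.4 CPM in CD28ko-labelled cells, against 468 ± 50 CPM in wild-type cells (0.64 ± 0.14). Ccl22 and Ccr4, a ligand and its receptor, had log2 fold changes of 0.21 ± 0.24 and -0.10 ± 0.18 and did not pass the test. With genes of a mean under 5 CPM left out, the median of this list was 0.09 in place of -0.82.

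**Figure D2:**
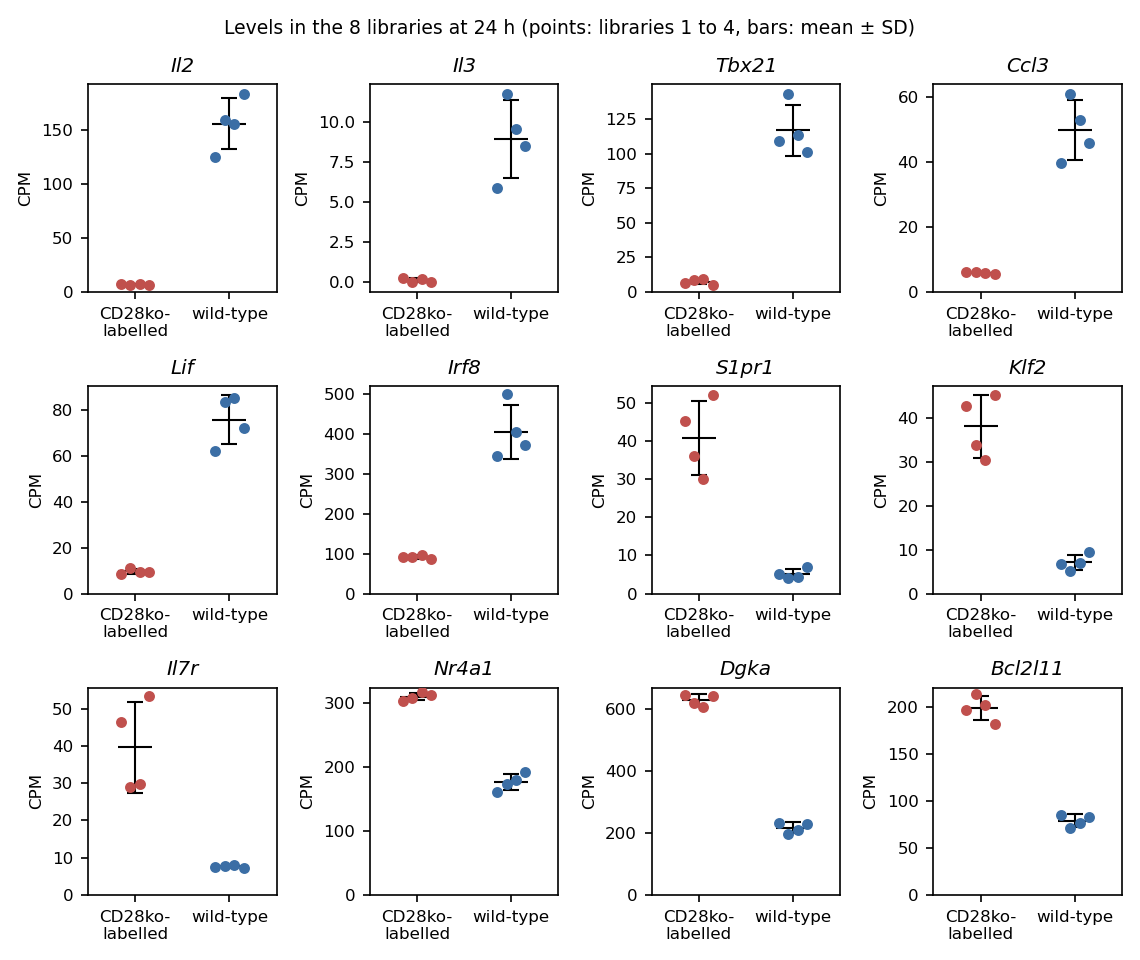
Each panel shows the CPM of a gene (y, linear) in the 4 CD28ko-labelled libraries (left) and the 4 wild-type libraries (right) at 24 h, with a bar at the mean and an error bar of 1 SD. The CD28ko-labelled libraries lie below all wild-type libraries for Il2, Il3, Tbx21, Ccl3, Lif and Irf8, and above them for S1pr1, Klf2, Il7r, Nr4a1, Dgka and Bcl2l11.

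The receptor family that CD28 belongs to and its partners moved both ways: 8 of 22 tested members rose and 9 fell, with a median log2 fold change of -0.15. Cd200 and Cd226, an inhibitory ligand and a costimulatory adhesion receptor, both fell, with log2 fold changes of -1.26 ± 0.09 and -1.32 ± 0.14. Cd200 had 226 ± 10.2 CPM in CD28ko-labelled cells and 539.5 ± 12.9 CPM in wild-type cells. Ctla4, the inhibitory relative that competes for CD80 and CD86, had 118, 99.1, 98.6 and 85.1 CPM in the CD28ko-labelled libraries and 162, 156, 162 and 175 CPM in the wild-type libraries. It fell (log2 fold change -0.71 ± 0.14), and so did Btla (-0.39 ± 0.09) and Lag3 (-0.66 ± 0.12), which are inhibitory receptors too. Other inhibitory receptors rose: Vsir, the gene of VISTA on resting T cells, reached 360.1 ± 27.9 CPM in CD28ko-labelled cells, against 159 ± 31.9 CPM in wild-type cells (1.18 ± 0.12), and Cd160 reached 33.1 ± 3.21 CPM in CD28ko-labelled cells, against 8.68 ± 1.22 CPM in wild-type cells (1.93 ± 0.21). Pdcd1, the gene of PD-1, had a log2 fold change of 0.54 ± 0.14. Icos, the inducible relative of CD28, had -0.25 ± 0.13 and did not pass the test (adjusted p = 0.116).

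Members of the TNF receptor family and their ligands were also mixed, in that 11 of 22 tested members rose and 8 fell, with a median log2 fold change of 0.01. Among those that fell, Tnfrsf4, the costimulator OX40, had 179 ± 10.9 CPM in CD28ko-labelled cells and 412 ± 16.4 CPM in wild-type cells (log2 fold change -1.21 ± 0.12), Tnfsf11, the gene of RANKL, had -1.54 ± 0.20, and Cd40lg, which carries help to B cells, had -0.87 ± 0.11. Cd27, a costimulator of resting T cells, rose to 199.9 ± 8.74 CPM in CD28ko-labelled cells, against 93.4 ± 14.3 CPM in wild-type cells (1.10 ± 0.08). Tnfrsf9, the costimulator 4-1BB, rose as well (0.81 ± 0.14), and Tnfrsf26, a mouse relative of the TRAIL receptors, rose to 25.9 ± 2.34 CPM in CD28ko-labelled cells, against 5.82 ± 1.21 CPM in wild-type cells (2.16 ± 0.15).

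A transcription factor of the type 1 helper response and some members of the AP-1 family showed some of the largest decreases of the whole comparison. Tbx21, the gene of T-bet, which drives interferon gamma production, had 6.82, 8.67, 9.2 and 5.13 CPM in the CD28ko-labelled libraries and 109, 143, 114 and 101 CPM in the wild-type libraries. Every wild-type library lies more than 10-fold above every CD28ko-labelled library (log2 fold change -3.97 ± 0.26, adjusted p = 1.01e-14). Il12rb2 and Il12rb1, the chains of the interleukin-12 receptor, fell with it: 2.62 ± 0.542 CPM in CD28ko-labelled cells and 20 ± 5.86 CPM in wild-type cells for Il12rb2 (log2 fold change -2.93 ± 0.23) and 70.8 ± 2.17 CPM in CD28ko-labelled cells and 186 ± 15.3 CPM in wild-type cells for Il12rb1 (-1.39 ± 0.14). Of the helper lineage list as a whole, 7 of 25 tested members rose and 9 fell, with a median log2 fold change of 0.07 and of -0.05 without CD28ko-labelled replicate 3. Gata3, the type 2 factor, fell (-0.65 ± 0.16), while Il18r1, a receptor chain for interleukin-18, rose to 4.17 ± 0.324 CPM in CD28ko-labelled cells, against 0.736 ± 0.143 CPM in wild-type cells (2.48 ± 0.19), and Id2, an inhibitor of E proteins, had 1.16 ± 0.11. Il4ra and Stat4 had log2 fold changes of 0.10 ± 0.10 and 0.10 ± 0.11 and did not pass the test.

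In the list of AP-1 and BATF factors 6 of 19 tested members rose and 8 fell, with a median log2 fold change of -0.26. Irf8, an interferon regulatory factor that pairs with BATF proteins, had 91, 91.5, 96.2 and 86.7 CPM in the CD28ko-labelled libraries and 344, 499, 405 and 371 CPM in the wild-type libraries. The CD28ko-labelled values lie close to each other and far below the wild-type range (log2 fold change -2.15 ± 0.21, adjusted p = 1.12e-10). Atf3, a stress-induced partner of JUN, had 3.79 ± 0.476 CPM in CD28ko-labelled cells and 36.5 ± 5.16 CPM in wild-type cells (-3.27 ± 0.38). Batf3, a relative of BATF, had 4 counts over the CD28ko-labelled group and 213 over the wild-type group (-5.55 ± 0.63). Batf itself and Junb fell by smaller steps (-1.08 ± 0.14 and -0.64 ± 0.15). Irf4, the graded reader of receptor signal strength, had 1029 ± 66.6 CPM in CD28ko-labelled cells and 1310 ± 32 CPM in wild-type cells, which did not pass the test (log2 fold change -0.35 ± 0.15, adjusted p = 0.0571), while DESeq2 (adjusted p = 0.0379), RLE size factors, the replicate block, a term for sex and a fit of the 8 libraries alone each called it lower (adjusted p from 0.000177 to 0.0497). Higher in CD28ko-labelled cells were Bach1, a repressor of the same motif, at 30.4 ± 1.6 CPM in CD28ko-labelled cells and 8.73 ± 0.845 CPM in wild-type cells (1.80 ± 0.12), and Maf at 6.85 ± 1.56 CPM in CD28ko-labelled cells and 1.08 ± 0.0706 CPM in wild-type cells (2.67 ± 0.22). Fosb, an immediate-early gene, had 9.96, 8.89, 7.19 and 5.89 CPM in the CD28ko-labelled libraries and 1.65, 0.869, 1.01 and 1.64 CPM in the wild-type libraries, with no overlap (2.63 ± 0.31).

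On the calcineurin and NFAT side of receptor signalling more genes were higher than lower in CD28ko-labelled cells. In the list of NFAT, calcineurin, EGR and NR4A genes 10 of 19 tested members rose and 1 fell, with a median log2 fold change of 0.29. Nr4a1, the gene of NUR77 and a common readout of receptor engagement, had 303, 308, 316 and 313 CPM in the CD28ko-labelled libraries and 161, 174, 179.9 and 192 CPM in the wild-type libraries. All CD28ko-labelled values exceeded all wild-type values (log2 fold change 0.81 ± 0.10, adjusted p = 1.78e-08). Egr3 and Egr1, which NFAT and ERK induce, rose (0.77 ± 0.12 and 0.57 ± 0.10), as did Nfatc1, whose short form NFAT itself induces, at 390.4 ± 12.8 CPM in CD28ko-labelled cells and 216 ± 4.77 CPM in wild-type cells (0.86 ± 0.07). Ppp3cc, a catalytic subunit of calcineurin, rose (0.90 ± 0.10), and so did Rcan3, a calcineurin regulator (0.68 ± 0.08). Nab1, a corepressor of EGR proteins, was the member that fell (-0.50 ± 0.08). Nfat5 and Ppp3r1 had log2 fold changes of -0.30 ± 0.18 and -0.14 ± 0.07 and did not pass the test.

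Of the NF-kB factors, inhibitors and regulators 12 of 26 tested members rose and 5 fell, with a median log2 fold change of 0.15. Malt1 and Bcl10, which link the receptor to NF-kB, rose with log2 fold changes of 0.55 ± 0.09 and 0.22 ± 0.07. Prkcq, the kinase upstream of them, rose too (0.40 ± 0.06). Nfkbid, a nuclear inhibitor protein known to help switch on Il2 in T cells, had 68.5, 63.7, 69.6 and 70.3 CPM in the CD28ko-labelled libraries and 125, 142, 134 and 143 CPM in the wild-type libraries, and its lower level was called (log2 fold change -0.997 ± 0.13). Rel, the subunit most tied to Il2, had 67 ± 4.87 CPM in CD28ko-labelled cells and 59.3 ± 5.51 CPM in wild-type cells and did not pass the test (adjusted p = 0.294).

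Proximal receptor signalling genes were largely higher, since 16 of 20 tested members rose and 2 fell, with a median log2 fold change of 0.36. These included the CD3 chains Cd3g (0.66 ± 0.09) and Cd3d (0.61 ± 0.09), the kinases Lck (0.37 ± 0.06) and Fyn (0.70 ± 0.06), the adaptor Grap2 at 165 ± 6.48 CPM in CD28ko-labelled cells and 85.2 ± 4.25 CPM in wild-type cells (0.95 ± 0.08) and the lipase Plcg1 (0.78 ± 0.08). Cd247, the zeta chain, fell (-0.34 ± 0.07). In the list of anergy genes and signalling brakes 11 of 23 tested members rose and 3 fell, with a median log2 fold change of 0.20. The list summed to 4173 to 4300 CPM in CD28ko-labelled and 2748 to 2981 CPM in wild-type libraries at 24 h. Before culture the sums were higher, at 5115 to 5830 CPM in CD28ko-labelled and 5891 to 6194 CPM in wild-type libraries. Dgka, the diacylglycerol kinase that is raised in anergic T cells, had 644, 621, 605 and 642 CPM in the CD28ko-labelled libraries and 233, 196, 209 and 228 CPM in the wild-type libraries. The groups are widely separated (log2 fold change 1.54 ± 0.07, adjusted p = 6.19e-18). Dgkz, its relative, rose (0.96 ± 0.07), and so did the phosphatases Ubash3b (1.53 ± 0.08) and Dusp1 (1.37 ± 0.13). Ptpn22, a phosphatase counted in the receptor list, rose too (1.37 ± 0.09). The ubiquitin ligase Cblb, whose loss frees T cells from CD28 dependence, had 275 ± 18.7 CPM in CD28ko-labelled cells and 241 ± 8.13 CPM in wild-type cells and did not pass the test (adjusted p = 0.185), while its relative Cbl rose (1.03 ± 0.20). The ERK phosphatases Dusp5 and Dusp4 fell (-0.63 ± 0.09 and -0.55 ± 0.09).

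Most genes of ribosome biogenesis were lower. In that list 0 of 26 tested members rose and 23 fell, with a median log2 fold change of -0.37. Polr1c, a subunit shared by RNA polymerases I and III, had 86 ± 5.6 CPM in CD28ko-labelled cells and 150.5 ± 3.74 CPM in wild-type cells (log2 fold change -0.81 ± 0.07), and Nop16 and Rrs1, nucleolar assembly factors, had -0.60 ± 0.07 and -0.61 ± 0.08. Of the MYC network 1 of 16 tested members rose and 9 fell, with a median log2 fold change of -0.25. Myc itself fell to 361 ± 17 CPM in CD28ko-labelled cells, against 496 ± 9.59 CPM in wild-type cells (-0.46 ± 0.09), and Odc1, its target in polyamine synthesis, had -0.73 ± 0.13. The member that rose was Mxd4, a MAX partner that opposes MYC, with 9.5, 9.92, 8.28 and 8.45 CPM in the CD28ko-labelled libraries and 1.33, 0.907, 1.87 and 1.2 CPM in the wild-type libraries. It was among the largest increases of the comparison (log2 fold change 2.76 ± 0.16, adjusted p = 5.12e-16).

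The serine, one-carbon, nucleotide and polyamine list was called in full: 0 of 25 tested members rose and 25 fell, with a median log2 fold change of -0.47. Mthfd2, the mitochondrial folate enzyme of proliferating cells, had 114 ± 4.57 CPM in CD28ko-labelled cells and 274 ± 12.8 CPM in wild-type cells (log2 fold change -1.26 ± 0.07), and Srm, spermidine synthase, had 288 ± 17.4 CPM in CD28ko-labelled cells and 559 ± 20.6 CPM in wild-type cells (-0.96 ± 0.08). Psat1 and Phgdh, enzymes of serine synthesis, changed by -0.84 ± 0.08 and -0.77 ± 0.07. In the amino acid stress list 1 of 18 tested members rose and 13 fell, with a median log2 fold change of -0.45. Cth, which makes cysteine from cystathionine, had 0.502, 0.733, 0.603 and 0.604 CPM in the CD28ko-labelled libraries and 7.92, 7.71, 7.18 and 6.25 CPM in the wild-type libraries, with no overlap (log2 fold change -3.56 ± 0.28). Atf4, the factor that governs this response, fell to 327 ± 5.18 CPM in CD28ko-labelled cells, against 541 ± 23.8 CPM in wild-type cells (-0.73 ± 0.12), and Asns, asparagine synthetase, had -1.62 ± 0.40. Ddit3, the gene of CHOP, was the member that rose (0.67 ± 0.12). Among amino acid transporters 0 of 12 tested members rose and 5 fell, with a median log2 fold change of -0.16. Slc7a11, the cystine importer, had 0.0595 ± 0.0511 CPM in CD28ko-labelled cells and 0.802 ± 0.263 CPM in wild-type cells (-3.62 ± 0.66), and Slc7a5 and Slc3a2, the 2 chains of the leucine importer, changed by -0.39 ± 0.12 and -0.35 ± 0.08.

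Of the glycolysis genes 2 of 22 tested members rose and 12 fell, with a median log2 fold change of -0.40. Hk2, the induced hexokinase, had 72.8, 83.1, 79.8 and 75.5 CPM in the CD28ko-labelled libraries and 186, 189, 193 and 179.9 CPM in the wild-type libraries. Its wild-type libraries all exceeded its CD28ko-labelled libraries (log2 fold change -1.26 ± 0.13, adjusted p = 5.55e-10). Ldha, lactate dehydrogenase, had 1474 ± 122 CPM in CD28ko-labelled cells and 2866 ± 67.9 CPM in wild-type cells (-0.96 ± 0.09), and Slc2a1, the glucose importer GLUT1, had -0.64 ± 0.13. Hif1a, an inducer of glycolysis, was among the members that rose (0.59 ± 0.09). Oxidative phosphorylation subunits had a smaller shift, in that 0 of 22 tested members rose and 8 fell, with a median log2 fold change of -0.19, with Cycs, cytochrome c, at 135 ± 8.33 CPM in CD28ko-labelled cells and 253 ± 18.5 CPM in wild-type cells (-0.91 ± 0.11). In sterol and fatty acid synthesis 4 of 30 tested members rose and 14 fell, with a median log2 fold change of -0.21. Idi1, a mevalonate pathway enzyme, fell (-0.65 ± 0.08), and Abcg1, which exports cholesterol, rose to 17.4 ± 1.71 CPM in CD28ko-labelled cells, against 5.07 ± 1.16 CPM in wild-type cells (1.78 ± 0.15).

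Cell cycle genes were lower together, and most so those of mitosis. In the DNA replication list 0 of 32 tested members rose and 27 fell, with a median log2 fold change of -0.57. Rrm2, the regulated subunit of ribonucleotide reductase, had 147, 127, 128 and 124 CPM in the CD28ko-labelled libraries and 484, 495, 460 and 392 CPM in the wild-type libraries. Its level fell (log2 fold change -1.80 ± 0.23, adjusted p = 6.19e-08), and so did that of Tyms, thymidylate synthase (-1.32 ± 0.16). The helicase subunits Mcm5 and Mcm6 had log2 fold changes of -0.13 ± 0.08 and -0.05 ± 0.06 and did not pass the test, while Mcm3 and Mcm4 fell slightly (-0.26 ± 0.06 and -0.21 ± 0.07). In the mitosis and spindle list 1 of 30 tested members rose and 28 fell, with a median log2 fold change of -1.27, and 22 members fell beyond 1.5-fold. Mki67, the proliferation marker, had 223, 49.7, 154 and 147 CPM in the CD28ko-labelled libraries and 256, 441, 393 and 293 CPM in the wild-type libraries. CD28ko-labelled replicate 2 was the lowest of the 8 libraries for it, and the groups did not overlap (log2 fold change -1.27 ± 0.33). Without that library the mitosis list had 1 member higher and 28 lower, with a median of -1.20. Aurkb, a kinase of chromosome segregation, had 36.2 ± 2.08 CPM in CD28ko-labelled cells and 108 ± 17.2 CPM in wild-type cells (-1.57 ± 0.16), and Ube2c, which drives exit from mitosis, had -2.19 ± 0.29. Cdc25b, a phosphatase that starts mitosis, was the member that rose (0.34 ± 0.12), a call lost without CD28ko-labelled replicate 1 (adjusted p = 0.0569) or wild-type replicate 4 (adjusted p = 0.0764).

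Among G1 cyclins, kinases, inhibitors and E2F factors 3 of 23 tested members rose and 15 fell, with a median log2 fold change of -0.51. The cyclins of the G1 to S transition fell: Ccne2 had 16.9 ± 2.4 CPM in CD28ko-labelled cells and 55.2 ± 5.6 CPM in wild-type cells (log2 fold change -1.71 ± 0.14), Ccne1 had -1.38 ± 0.14 and Ccnd3 had -0.85 ± 0.06. Ccnd2, a D cyclin of early G1, rose (0.36 ± 0.08). The inhibitors went opposite ways. Cdkn1b, the gene of p27, rose to 49.6 ± 3.68 CPM in CD28ko-labelled cells, against 19.5 ± 1.5 CPM in wild-type cells (1.35 ± 0.15), while Cdkn1a, the gene of p21, had 17.4, 13.6, 14.2 and 19.6 CPM in the CD28ko-labelled libraries and 55.1, 63.7, 65.3 and 69.8 CPM in the wild-type libraries and fell (-1.97 ± 0.20). Rbl2, the pocket protein p130 of resting cells, rose (1.06 ± 0.08).

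Most quiescence genes were higher. In the list of quiescence and antiproliferative genes 16 of 23 tested members rose and 2 fell, with a median log2 fold change of 0.56. The list summed to 5046 to 5184 CPM in CD28ko-labelled and 3627 to 3781 CPM in wild-type libraries at 24 h. Before culture the sums were higher, at 16990 to 20460 CPM in CD28ko-labelled and 20270 to 21810 CPM in wild-type libraries. Klf2, the factor that keeps T cells quiescent and recirculating, had 42.6, 33.8, 30.3 and 45.2 CPM in the CD28ko-labelled libraries and 6.68, 5.14, 6.94 and 9.5 CPM in the wild-type libraries. Every CD28ko-labelled library lies well above every wild-type library (log2 fold change 2.43 ± 0.18, adjusted p = 4.49e-13). S1pr1, its target and the receptor for exit from lymph nodes, had 45.2, 36, 29.9 and 51.9 CPM in the CD28ko-labelled libraries and 4.99, 3.97, 4.25 and 7.01 CPM in the wild-type libraries, an 8.07-fold higher mean without overlap (3.01 ± 0.20). Tcf7 and Ets1, factors of naive T cells, both rose, with log2 fold changes of 0.997 ± 0.07 and 1.13 ± 0.07. Tcf7 had 606 ± 18.4 CPM in CD28ko-labelled cells and 304 ± 12.9 CPM in wild-type cells. Ripor2, an inhibitor of RHOA, and Pdcd4, a translation inhibitor, rose as well (1.41 ± 0.09 and 1.16 ± 0.08). Klf6 and Slfn2 fell (-0.52 ± 0.11 and -0.27 ± 0.09), and Lef1 had 0.15 ± 0.07, which did not pass the test.

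In the list of naive T cell identity and trafficking genes 12 of 21 tested members rose and 6 fell, with a median log2 fold change of 0.64. Il7r, the receptor chain for the survival cytokine interleukin-7, had 46.5, 28.9, 29.9 and 53.4 CPM in the CD28ko-labelled libraries and 7.39, 7.79, 8.19 and 7.33 CPM in the wild-type libraries. Its spread was wide in CD28ko-labelled cells and the groups still did not overlap (log2 fold change 2.37 ± 0.19, adjusted p = 2.9e-12). S1pr4 and Itga4, a relative of S1pr1 and an integrin chain, rose with log2 fold changes of 1.48 ± 0.09 and 1.68 ± 0.14. Members of this list that mark activated or memory cells were among those that fell: Cd44 had 48 ± 5.29 CPM in CD28ko-labelled cells and 103 ± 15.9 CPM in wild-type cells (-1.10 ± 0.12), Itgb1 had -1.07 ± 0.07, Cd69, an early activation marker, had -0.60 ± 0.10, and Ly6a had 30.9 ± 2.11 CPM in CD28ko-labelled cells and 208 ± 45.6 CPM in wild-type cells (-2.75 ± 0.25). A separate list of memory markers had 14 tested members with 1 higher and 5 lower and a median log2 fold change of 0.18, which was -0.13 with genes under 5 CPM left out and -0.38 in a fit of the 8 libraries alone. The member that rose was Ahnak at 58.1 ± 4.68 CPM in CD28ko-labelled cells and 13.1 ± 2.43 CPM in wild-type cells (2.15 ± 0.19).

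Of the PI3K, AKT and mTOR genes 16 of 26 tested members rose and 5 fell, with a median log2 fold change of 0.23. Pik3ip1, an inhibitor of PI3K that activated T cells lose, had 24.8, 21.5, 19.4 and 25.7 CPM in the CD28ko-labelled libraries and 4.27, 2.95, 3.28 and 4.29 CPM in the wild-type libraries. The groups did not overlap (log2 fold change 2.63 ± 0.14, adjusted p = 1.65e-16). Pik3cd, the catalytic subunit of lymphocytes, rose (0.88 ± 0.07), and so did Foxo1, a factor that AKT shuts out of the nucleus and that induces Klf2 and Il7r (0.60 ± 0.10). Eif4ebp1, a translation brake under mTOR, fell (-1.05 ± 0.15), as did Akt1 (-0.41 ± 0.08). Mtor had 0.04 ± 0.08 and did not pass the test.

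**Figure D3:**
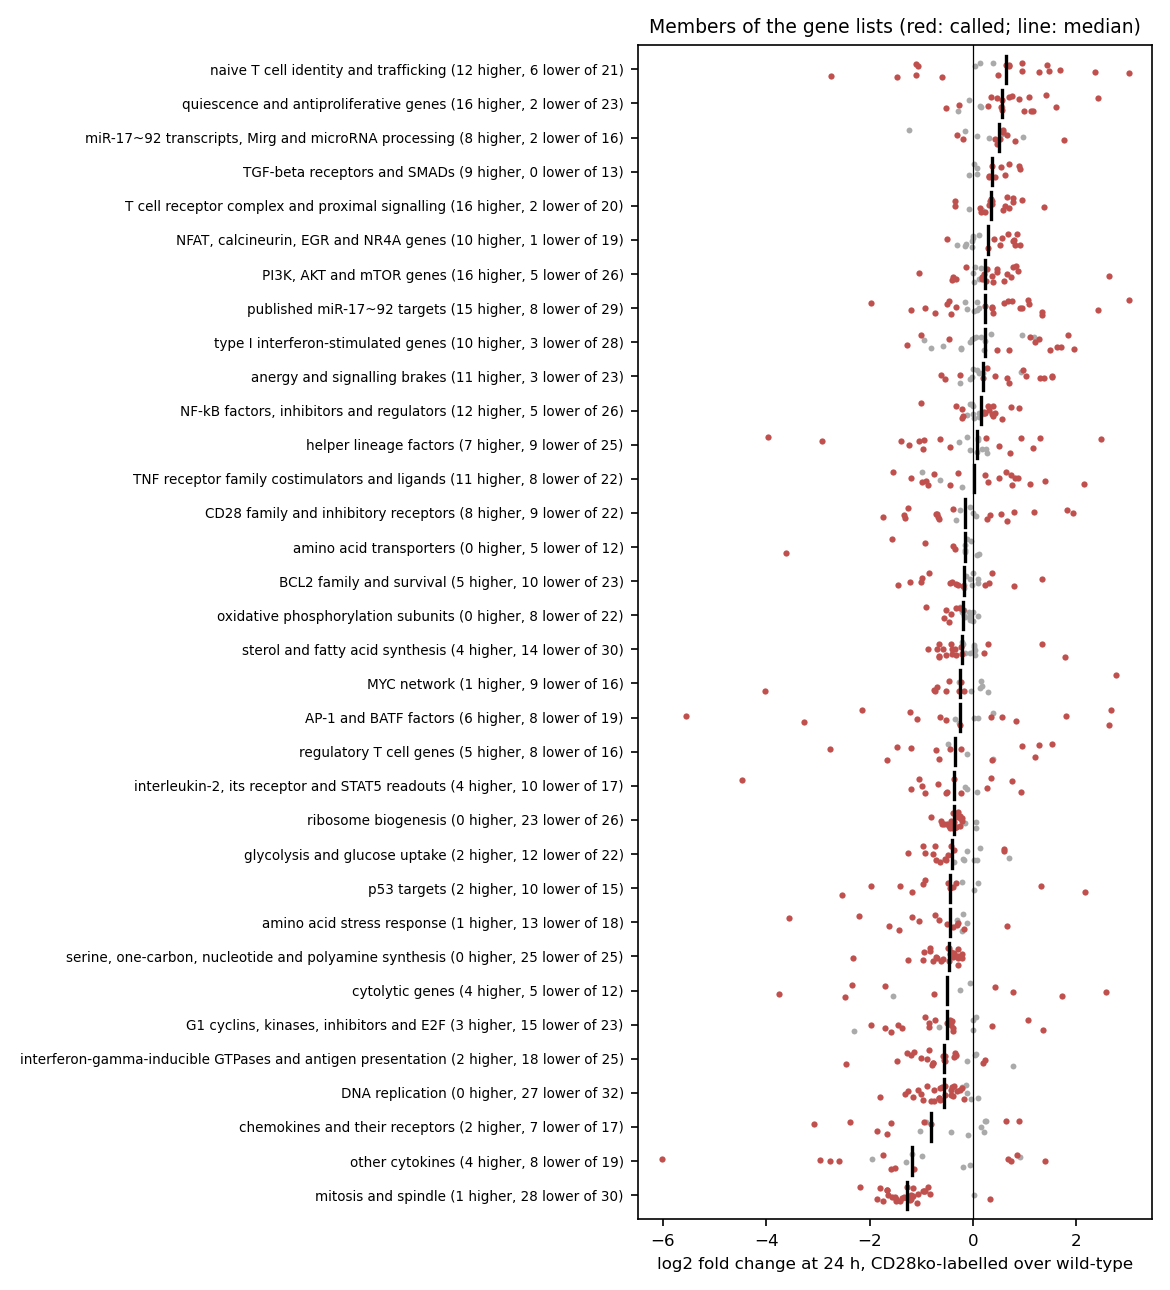
Each row is a gene list and each point a tested member at its log2 fold change of CD28ko-labelled over wild-type cells at 24 h (x), in red where it was called, with a line at the list's median. Lists are ordered by their median, which is -1.27 for mitosis, -0.57 for DNA replication, 0.56 for quiescence genes and 0.64 for naive trafficking genes.

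Interferon-related genes went both ways. Of the genes of the type I interferon response 10 of 28 tested members rose and 3 fell, with a median log2 fold change of 0.22. Irf7, the factor that amplifies this response, had 4.07 ± 0.521 CPM in CD28ko-labelled cells and 1.12 ± 0.248 CPM in wild-type cells (log2 fold change 1.85 ± 0.36), Ddx58, the RNA sensor RIG-I, had 1.49 ± 0.14, and Ifi27l2a had 71.1 ± 7.95 CPM in CD28ko-labelled cells and 31 ± 4.42 CPM in wild-type cells (1.20 ± 0.14). With genes under 5 CPM left out, 3 members of that list rose and 2 fell. Bst2, which tethers viruses to the cell surface, had 29.4, 33.7, 30.9 and 40 CPM in the CD28ko-labelled libraries and 78.2, 79.3, 78.9 and 87.9 CPM in the wild-type libraries and fell, without overlap (-1.27 ± 0.13). Of the interferon gamma-inducible GTPases and antigen presentation genes 2 of 25 tested members rose and 18 fell, with a median log2 fold change of -0.55. Iigp1, a GTPase that attacks pathogen vacuoles, had 44.4, 41.6, 41.9 and 31.4 CPM in the CD28ko-labelled libraries and 203, 271, 189 and 207 CPM in the wild-type libraries. The groups lie far apart (log2 fold change -2.45 ± 0.25, adjusted p = 3.69e-10). Irgm1 and Igtp, GTPases of the same family, had -1.47 ± 0.15 and -1.27 ± 0.15, Irf1, the factor upstream, had -0.78 ± 0.12, and Psmb9 and Tap1, which make and load peptides for class I, had -0.90 ± 0.10 and -0.79 ± 0.08. B2m, the light chain of class I, had 0.04 ± 0.10 and did not pass the test. These GTPases have near-identical relatives, so reads shared between copies make their single values uncertain. Markers of NK and CD8 T cells, which also make interferon gamma, summed to 25.4 to 26.5 CPM in CD28ko-labelled and 29.8 to 41.6 CPM in wild-type libraries. Of the 10 in that list 1 rose and 6 fell, with a median log2 fold change of -0.98, and their part in these differences and in that of Ifng was not tested.

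Survival genes of the BCL2 family did not move one way, in that 5 of 23 tested members rose and 10 fell, with a median log2 fold change of -0.18. Bcl2l1, the gene of BCL-xL and the survival protein known to depend on CD28, had 116, 136, 130.5 and 131 CPM in the CD28ko-labelled libraries and 269, 296, 297 and 330.1 CPM in the wild-type libraries. All CD28ko-labelled libraries lay below all wild-type libraries (log2 fold change -1.22 ± 0.08, adjusted p = 8.2e-15). Bcl2, the survival protein of resting T cells, rose to 114 ± 5.12 CPM in CD28ko-labelled cells, against 65.5 ± 4.19 CPM in wild-type cells (0.80 ± 0.08), and Bcl2l11, the gene of the killer protein BIM, had 197, 213, 202 and 182 CPM in the CD28ko-labelled libraries and 85.5, 70.7, 77 and 83.1 CPM in the wild-type libraries, with no overlap (1.33 ± 0.10). Mcl1, another survival member, rose (0.30 ± 0.08). In the p53 target list 2 of 15 tested members rose and 10 fell, with a median log2 fold change of -0.44. Perp, a membrane protein tied to cell death, fell to 1.82 ± 0.0667 CPM in CD28ko-labelled cells, against 10.6 ± 1.32 CPM in wild-type cells (-2.54 ± 0.21), while Trp53inp1, a p53 cofactor, rose to 215 ± 19.1 CPM in CD28ko-labelled cells, against 47.8 ± 8.58 CPM in wild-type cells (2.17 ± 0.14), and Sesn1 rose (1.32 ± 0.07) where its relative Sesn2 fell (-1.19 ± 0.12). Trp53 itself had 0.03 ± 0.05 and did not pass the test.

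Cytolytic genes were mixed: 4 of 12 tested members rose and 5 fell, with a median log2 fold change of -0.50. Gzmb, granzyme B, had 16.3, 18.7, 18.2 and 14.8 CPM in the CD28ko-labelled libraries and 52.7, 79.9, 53.2 and 36.8 CPM in the wild-type libraries. It fell (log2 fold change -1.71 ± 0.25), and so did its inhibitor Serpinb9, at 16.4 ± 2.1 CPM in CD28ko-labelled cells and 91.4 ± 12.2 CPM in wild-type cells (-2.48 ± 0.15). Crtam, a surface protein of cells with cytolytic leanings, rose to 83.7 ± 3.63 CPM in CD28ko-labelled cells, against 14 ± 1.74 CPM in wild-type cells (2.58 ± 0.12), and so did Ctsw, cathepsin W (1.71 ± 0.14). The sums and counts of NK and CD8 markers given above lie beside these values too.

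Among genes of regulatory T cells 5 of 16 tested members rose and 8 fell, with a median log2 fold change of -0.34. Foxp3, the lineage factor, had 7.2, 6.6, 5.46 and 4.6 CPM in the CD28ko-labelled libraries and 8.23, 9.68, 9.44 and 10.3 CPM in the wild-type libraries. It fell (log2 fold change -0.66 ± 0.20, adjusted p = 0.00476), and Lrrc32 and Ikzf2, a carrier of latent TGF-beta and the factor Helios, fell as well (-1.48 ± 0.17 and -1.67 ± 0.19). Izumo1r, the gene of folate receptor 4, and Nrp1, neuropilin 1, rose (1.20 ± 0.09 and 1.28 ± 0.16), as did Capg, an actin-capping protein (1.52 ± 0.11). Receptors and SMADs of the TGF-beta pathway had higher values, since 9 of 13 tested members rose and 0 fell, with a median log2 fold change of 0.37. Tgfbr2, the ligand-binding receptor, had 101 ± 4.46 CPM in CD28ko-labelled cells and 54.1 ± 3.38 CPM in wild-type cells (0.90 ± 0.08), and Tgfbr3, a coreceptor, had 0.89 ± 0.10.

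The 15 largest increases and 15 largest decreases among called genes whose groups did not overlap and whose higher group averaged at least 5 CPM held several genes outside these lists. Il1a, an inflammatory cytokine of the interleukin-1 family, had 0.0418, 0.129, 0.12 and 0.0755 CPM in the CD28ko-labelled libraries and 7.17, 10.3, 7.33 and 11.2 CPM in the wild-type libraries (log2 fold change -6.54 ± 0.39). It had 9 counts over the CD28ko-labelled group and 901 over the wild-type group. Acsl6, a fatty acid activating enzyme, had 0.399 ± 0.18 CPM in CD28ko-labelled cells and 7.1 ± 1.16 CPM in wild-type cells (-4.12 ± 0.42), Serpine2, a protease inhibitor, had 2.12 ± 0.408 CPM in CD28ko-labelled cells and 18 ± 1.75 CPM in wild-type cells (-3.09 ± 0.20), and Sh2d1a, the adaptor SAP of SLAM receptors, had 7.05 ± 0.577 CPM in CD28ko-labelled cells and 64.3 ± 6.26 CPM in wild-type cells (-3.19 ± 0.12). Tbkbp1, which binds the kinase TBK1, Ube2l6, an ISG15-conjugating enzyme, Ifitm3, an antiviral membrane protein, and Tmem35a, a receptor chaperone in neurons, complete the decreases with -3.54 ± 0.22, -3.75 ± 0.42, -2.94 ± 0.17 and -3.998 ± 0.25, beside Il3, Il2, Tbx21, Cth, Atf3, Ccl3 and Lif above.

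The largest increase was Sspo, named for the brain protein SCO-spondin, with 18.3, 14.4, 14.5 and 14.2 CPM in the CD28ko-labelled libraries and 1.29, 0.794, 0.78 and 0.721 CPM in the wild-type libraries (log2 fold change 4.10 ± 0.29, adjusted p = 1.27e-13). Nt5e, the ectoenzyme CD73 that makes adenosine and is raised on anergic T cells, had 60.6, 33.7, 44.1 and 43.2 CPM in the CD28ko-labelled libraries and 5.56, 5.93, 7.64 and 7.09 CPM in the wild-type libraries. None of the libraries overlapped (2.79 ± 0.19). Enzymes of cyclic nucleotides were among the increases: Pde2a, a phosphodiesterase, reached 20.3 ± 5.23 CPM in CD28ko-labelled cells, against 2.06 ± 0.488 CPM in wild-type cells (3.31 ± 0.25), and Gucy1a1, a subunit of the nitric oxide receptor, reached 20.4 ± 1.14 CPM in CD28ko-labelled cells, against 2.37 ± 0.253 CPM in wild-type cells (3.10 ± 0.17). Ramp1, a subunit of the receptor for the neuropeptide CGRP, had 28.9 ± 2.46 CPM in CD28ko-labelled cells and 3.4 ± 0.261 CPM in wild-type cells (3.09 ± 0.14). Calcoco1, an autophagy receptor, and Ypel3, a growth suppressor, had 3.04 ± 0.12 and 2.89 ± 0.13. Tcp11l2, Mturn, Pgpep1l, Ifi208, Ifit1bl1 and Slc28a2b had log2 fold changes of 3.06, 2.69, 3.51, 2.74, 2.74 and 2.87, and the last 3 belong to families of near-identical copies, which makes their single values uncertain.

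The series was built around miR-17~92, so its microRNAs and their targets were read in this comparison too. MicroRNAs of the cluster pair through their seed, bases 2 to 8, with sites in 3' untranslated regions and lower the targeted transcript. The mature sequences are from RefSeq on GRCm38.p6, all on the plus strand of chromosome 14, and are grouped by shared seed (capitals).
miR-17-5p: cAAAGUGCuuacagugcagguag
miR-20a-5p: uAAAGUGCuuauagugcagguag
miR-18a-5p: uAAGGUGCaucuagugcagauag
miR-19a-3p: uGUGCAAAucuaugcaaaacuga
miR-19b-3p: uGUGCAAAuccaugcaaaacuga
miR-92a-3p: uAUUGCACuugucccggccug
Mir17hg, the host transcript of the cluster (chr14:115044390-115046728), had 32.9, 29.4, 26.1 and 25.9 CPM in the CD28ko-labelled libraries and 23, 17.4, 20.5 and 21.9 CPM in the wild-type libraries. It rose in CD28ko-labelled cells (log2 fold change 0.47 ± 0.13, adjusted p = 0.00358). The interval given for Mir17hg holds miR-92a, while the other mature sequences printed above end before its first base. Its value therefore need not stand for the transcript of the whole cluster. Mature microRNAs were not measured by these libraries. In a list of its transcripts, Mirg (the host of an unrelated microRNA cluster) and microRNA processing genes, 8 of 16 tested members rose and 2 fell, with a median log2 fold change of 0.50. Tnrc6b and Tnrc6c, partners of Argonaute in silencing, rose (0.81 ± 0.14 and 0.65 ± 0.11), as did Ago1 and Ago2 (0.58 ± 0.08 and 0.57 ± 0.16). Drosha and Dgcr8, which cut primary transcripts, fell (-0.31 ± 0.07 and -0.20 ± 0.06).

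Of the published targets of the cluster 15 of 29 tested members rose and 8 fell, with a median log2 fold change of 0.23. Several of the higher members appear above for their own roles. The following 30-base windows show an 8-base site (capitals: the seed match and the A that follows it) in the 3' untranslated region (the longest annotated) of 4 of them (GENCODE, GRCm38). They are sequence matches to the seeds printed above, and binding at them was not measured.
Bcl2l11, miR-17 site, chr2:128160441-128160470, plus strand: ccccgactggaGCACTTTActgtctcagcc
Bcl2l11, miR-92a site, chr2:128162438-128162467, plus strand: ccactgtacctGTGCAATActgctgtaaat
Rcan3, miR-17 site, chr4:135416222-135416251, minus strand: tattctcaatgGCACTTTAagtgacaaggt
Tgfbr2, miR-17 site, chr9:116090062-116090091, minus strand: caataacgtttGCACTTTAttaatgcctgt
S1pr1, miR-19 site, chr3:115710469-115710498, minus strand: ttgtggatcatTTTGCACAtagctttatca
Among the members that fell, Socs1 (miR-19) and E2f3 (miR-17) also had such an 8-base site, which is not shown. Other members with negative log2 fold changes had a site too: Prkaa1 (-0.474), Phlpp2 (-0.335), Tnfaip3 (-0.123) and Socs3, which did not pass the test. E2f1, E2f2, Cdkn1a and Map3k8, also negative, had none. Such sites were therefore found in targets of either sign. Targets that act in the cell cycle went both ways. Rbl2 and Ccnd2 rose and Cdkn1a fell, as given above, and E2f3 fell to 43.7 ± 2.29 CPM in CD28ko-labelled cells, against 83.3 ± 1.82 CPM in wild-type cells (-0.93 ± 0.09), as did E2f1 (-0.74 ± 0.08). Across all tested genes with an annotated region, 1652 had an 8-base site of any of these seeds. Of those 29.2% rose and 24.0% fell (median log2 fold change 0.015), against 23.1% and 29.4% of the 10856 genes without such a site (median -0.042). Their regions differ in length, with medians of 2457 and 999 bases. Among regions of at least 1000 bases, 29.3% of 1414 genes with a site rose and 23.5% fell, and 26.9% of 5426 without a site rose and 27.2% fell. The medians were 0.015 and 0.0 there.

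The differences at 24 h were set against those already present in naive cells. Before culture 2015 genes were called between CD28ko-labelled and wild-type cells, or 14.8% of the 13650, with 1013 higher (7.42%) and 1002 lower (7.34%). The count was 1170 without naive CD28ko-labelled replicate 4, 1307 without naive wild-type replicate 2 and 1331 without naive wild-type replicate 3. Of the 2015 genes 1185 were called at 24 h as well, 436 with the same sign and 749 with the opposite sign. The 436 are 6.203% of the 24 h calls and 21.64% of the naive calls. That last share is no larger than those over all tested genes, of which 23.7% were called higher and 27.8% lower at 24 h. An interaction test asked which differences changed in size between the states, and called 5905 genes (43.3%), with 2846 more positive (20.8%) and 3059 more negative (22.4%) at 24 h. Of the 7029 genes called at 24 h 5054 had a called interaction.

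Some genes of the receptor response had opposite signs in the states. Nr4a1 had 842 ± 17.2 CPM in naive CD28ko-labelled cells and 1280 ± 99.9 CPM in naive wild-type cells (log2 fold change -0.60 ± 0.10), with the opposite sign at 24 h (interaction 1.42 ± 0.14, adjusted p = 5.63e-10). Fosb had 101, 99.4, 146 and 132 CPM in the naive CD28ko-labelled libraries and 264, 302, 341 and 458 CPM in the naive wild-type libraries, a lower level (-1.51 ± 0.19), and its interaction was 4.14 ± 0.36 (adjusted p = 4.53e-11). Egr2, another target of NFAT, had -1.14 ± 0.15 in naive cells and 0.41 ± 0.14 at 24 h. In the NF-kB list 0 members were higher and 14 lower in naive cells, in the NFAT list 0 of 19 were higher and 6 lower, and in the AP-1 list 0 of 19 were higher and 6 lower. The list of RNA stress and dissociation genes, which holds Fosb, Egr1, Junb and Atf3, had 0 of 13 higher and 8 lower in naive cells, with a median log2 fold change of -0.60. It summed to 7294 to 8353 CPM in naive CD28ko-labelled and 7309 to 16760 CPM in naive wild-type libraries, and its part in these differences was not tested. Nt5e went the same way as Fosb, with 24.7 ± 1.2 CPM in naive CD28ko-labelled cells and 46.1 ± 6.99 CPM in naive wild-type cells and an interaction of 3.69 ± 0.25 (adjusted p = 1.75e-13).

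Type I interferon-stimulated genes already stood higher before culture. In naive cells 18 of 28 tested members rose and 0 fell, with a median log2 fold change of 0.81. Bst2 was among those higher in naive cells (0.67 ± 0.13) and lower at 24 h. The interferon gamma-inducible list had 1 member higher and 2 lower in naive cells. Foxp3 had 4.63 ± 0.832 CPM in naive CD28ko-labelled cells and 21.7 ± 1.64 CPM in naive wild-type cells (-2.23 ± 0.20), and Lrrc32 had 2.65 ± 0.471 CPM in naive CD28ko-labelled cells and 20.4 ± 1.41 CPM in naive wild-type cells (-2.94 ± 0.18). Their interactions were 1.57 ± 0.28 (adjusted p = 2.29e-05) and 1.46 ± 0.24 (adjusted p = 7.2e-06).

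Tbx21 was low before culture in both genotypes. It had 3.48 ± 0.565 CPM in naive CD28ko-labelled cells and 3.16 ± 0.314 CPM in naive wild-type cells (log2 fold change 0.14 ± 0.33, adjusted p = 0.828), and its interaction was -4.11 ± 0.41 (adjusted p = 8.57e-10). Il2 was below 1 CPM in every naive library, so that its interaction was wide (-2.60 ± 1.49, adjusted p = 0.164) and did not pass the test. DESeq2 called it (-2.52, adjusted p = 0.00474), and so did a fit of the libraries compared alone (-2.61, adjusted p = 0.0311). Other large negative interactions were those of Tbkbp1 (-4.47 ± 0.38), Tmem35a (-4.10 ± 0.36), Cth (-4.51 ± 0.94), Il1a (-4.59 ± 1.14) and Ptpn5, a tyrosine phosphatase (-3.56 ± 0.43), and large positive ones those of Gucy1a1 (3.59 ± 0.25), Sspo (3.92 ± 0.44) and Pgpep1l (3.31 ± 0.45). In the DNA replication list 6 members were higher and 0 lower in naive cells.

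**Figure D4:**
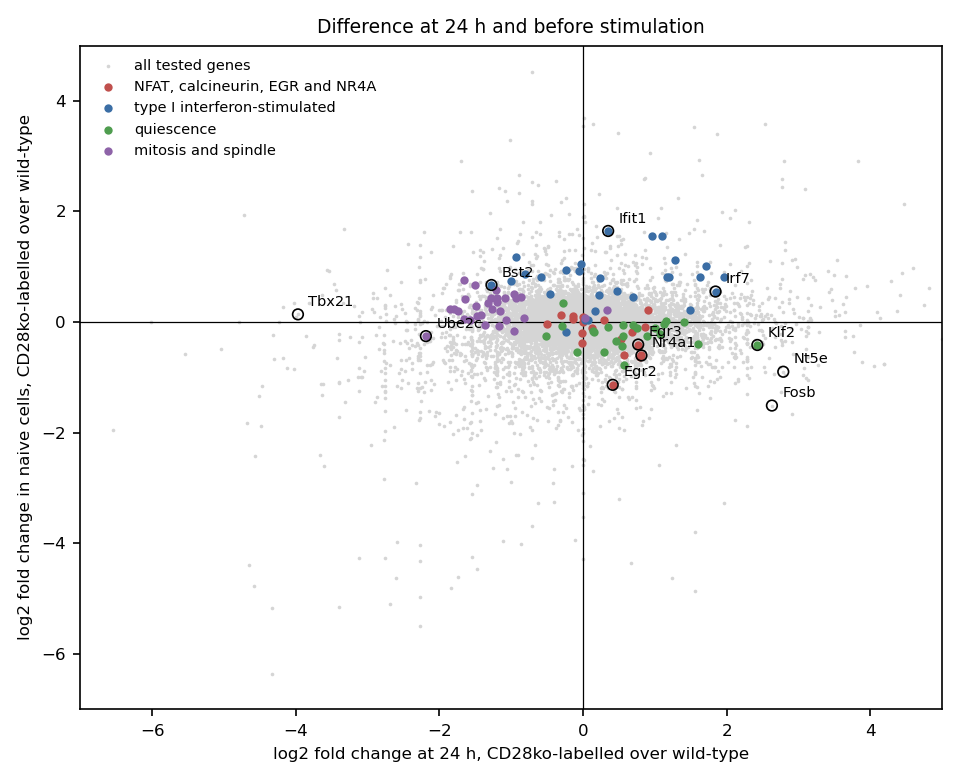
Each point is a tested gene at its log2 fold change of CD28ko-labelled over wild-type cells at 24 h (x) and in naive cells (y). Coloured points are 4 gene lists and black rings mark named genes, with Nr4a1, Fosb, Egr2, Egr3 and Nt5e right of 0 and below it, and Tbx21 far left near the middle.

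The same contrast was read once more between stimulated rescue and T1792tg/tg cells, which share no library with the comparison above. All 3 rescue libraries and 1 of the 4 T1792tg/tg libraries came from female mice. In this pair 4426 genes were called (32.4%), with 2262 higher (16.6%) and 2164 lower (15.9%) in rescue cells. Of the 7029 genes called between CD28ko-labelled and wild-type cells, 3940 were called with the same sign in the transgenic pair, which is 56.05% of those calls and 89.02% of the transgenic ones. Of the 1395 genes beyond 1.5-fold 1119 were called with the same sign (80.22%) and 1368 had the same sign (98.06%), against 82.32% of all tested genes. The 819 higher genes had a median log2 fold change of 1.01 in the transgenic pair and 1.35 in the pair that selected them, and the 576 lower genes had -0.65 and -1.27.

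Il2 had 8.71, 20.5 and 14.2 CPM in the rescue libraries and 189.7, 170.3, 236 and 264 CPM in the T1792tg/tg libraries, again without overlap (log2 fold change -3.90 ± 0.21, adjusted p = 2.31e-16). Il3 and S1pr1 also differed in the transgenic pair (-5.83 ± 0.46 and 2.09 ± 0.21), as did Dgka, which had 409.9 ± 66.3 CPM in rescue cells and 140.5 ± 3.42 CPM in T1792tg/tg cells (1.54 ± 0.08). Sspo had 10.9 ± 3.18 CPM in rescue cells and 0.628 ± 0.195 CPM in T1792tg/tg cells (4.11 ± 0.31). Ctla4 and Bcl2l1 fell in rescue cells (-0.72 ± 0.15 and -0.93 ± 0.08). In the type I interferon list 14 members were higher and 1 lower.

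A test of the difference between the pairs called 288 genes (2.11%), with 107 higher (0.784%) and 181 lower (1.33%) in the CD28ko-labelled comparison than in the transgenic one. Single libraries moved this count: it was 447 without rescue replicate 1, 119 without rescue replicate 2, 132 without rescue replicate 3, 172 without T1792tg/tg replicate 3 or 4, 181 without wild-type replicate 1 and 178 without wild-type replicate 2. Tbx21 had 50.2, 98.9 and 107 CPM in the rescue libraries and 165, 203, 164 and 156 CPM in the T1792tg/tg libraries (log2 fold change -1.01 ± 0.24). The pairs differed in it by -2.96 ± 0.34 (adjusted p = 7.4e-07). Iigp1 had 202, 414 and 385 CPM in the rescue libraries and 449, 462, 393 and 415 CPM in the T1792tg/tg libraries, which overlap (log2 fold change -0.36 ± 0.25, adjusted p = 0.284), and the difference between the pairs was -2.09 ± 0.34 (adjusted p = 0.000469). Of the 25 tested interferon gamma-inducible genes 13 were called for this difference, and the list had 2 members higher and 0 lower in rescue cells, against 2 and 18 in CD28ko-labelled cells. Ube2l6, Tbkbp1 and Tmem35a were likewise more negative in CD28ko-labelled cells (-2.61 ± 0.55, -2.56 ± 0.29 and -2.29 ± 0.33).

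On the positive side stood Fosb, with 4.41 ± 0.925 CPM in rescue cells and 5.17 ± 1.37 CPM in T1792tg/tg cells and a difference between the pairs of 2.86 ± 0.42 (adjusted p = 0.000104), and Il7r, with 22 ± 4.66 CPM in rescue cells and 14 ± 1.63 CPM in T1792tg/tg cells and 1.71 ± 0.28. Maf (1.66 ± 0.31), Ahnak (1.68 ± 0.26), Sgk1, a kinase downstream of PI3K (1.31 ± 0.24), and Cd55, a complement regulator (1.28 ± 0.27), followed. In the transgenic pair 0 of 32 DNA replication genes were higher and 7 lower, and 1 of 30 mitosis genes was higher and 4 lower. Mki67 had 197, 317 and 178 CPM in the rescue libraries and 294, 314, 293 and 336 CPM in the T1792tg/tg libraries (-0.42 ± 0.35, adjusted p = 0.391).

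**Figure D5:**
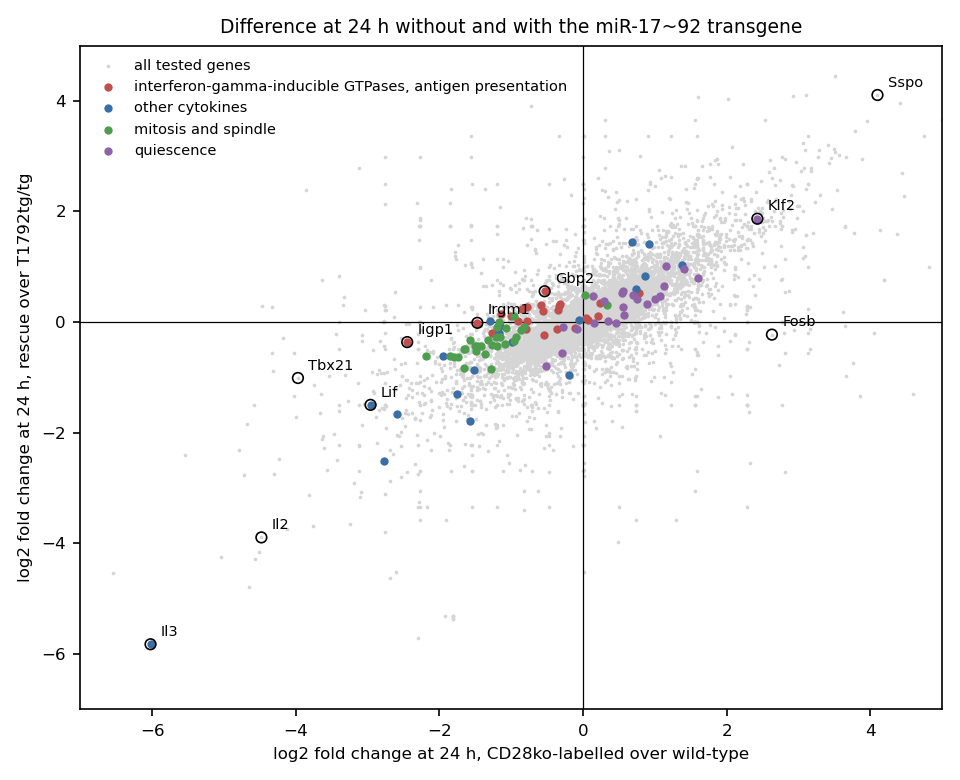
Each point is a tested gene at its log2 fold change of CD28ko-labelled over wild-type cells (x) and of rescue over T1792tg/tg cells (y), both at 24 h. Coloured points are 4 gene lists and rings mark named genes, with Il2, Il3 and Sspo far from 0 on both axes, and Tbx21 and Iigp1 far from 0 on x and closer to it on y.

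Markers of other cell types were read in the 8 libraries as a check on their makeup. B cell markers summed to 107 to 147 CPM in CD28ko-labelled and 45.1 to 111 CPM in wild-type libraries. Of 12 tested B cell markers 4 rose and 0 fell, with 1 called without CD28ko-labelled replicate 1, wild-type replicate 1 or wild-type replicate 4, and 7 without wild-type replicate 2. Cr2, Cd79a, Cd79b and Fcer2a rose (1.75 ± 0.53, 1.07 ± 0.39, 1.02 ± 0.37 and 0.88 ± 0.34). Myeloid markers summed to 9.08 to 14.0 CPM in CD28ko-labelled and 9.54 to 15.7 CPM in wild-type libraries, with 3 of 16 higher and 1 lower, and red cell markers to 0.522 to 5.73 CPM in CD28ko-labelled and 4.99 to 6.90 CPM in wild-type libraries. In the list for RNA stress and tissue dissociation, 4 of 13 genes rose and 3 fell. Their part in the results above was not tested.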

How the data were processed

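The unit is counts: the authors deposited a table of whole-number read counts per gene for 38 libraries and 24028 Entrez genes, with no normalization. Per the labels' protocols, the libraries were stranded and read single ends of 76 nt. The submitters' processing notes name mm10 as the build and STAR 2.5.2a, edgeR 3.24.3, R 3.5 and FastQC 0.11.5 as tools. Which tool counted reads, and on which annotation, is not given in the sources used here. Strand use in counting is therefore unknown, and overlapping or near-identical genes may share reads.

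A RefSeq table of GRCm38.p6 gave symbols and positions for 23968 identifiers. The other 60 hold 0.0749% of the counts. They kept their identifiers and went through the same filter and tests, but none of them could be named. Genes were kept by edgeR's filterByExpr, which left 13650. Counts were scaled by TMM, and CPM uses the scaled sizes. The quasi-likelihood model of edgeR 4.0.16 (R 4.3.3) had a coefficient per group over all 38 libraries, which share the estimate of spread (28 residual degrees of freedom), and comparisons were contrasts tested two-sided. An SE is the log2 fold change divided by the square root of F. Changes beyond 1.5-fold were tested with glmTreat. Fold values are the model's log2 fold changes taken off the log scale, so they can differ slightly from ratios of mean CPM. Libraries come from single mice, and no 2 of a group were alike within sampling noise. Replicate numbers did not pair the genotypes. Each of the 8 libraries held at least 22.3 in units of 1000000 counts, and counting error weighs most on genes near 0 CPM.

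The genes, lists and comparisons were chosen with earlier results of these data known. The 40 lists hold 818 memberships, and 7 of the names sought were not found. Named genes were taken by rule: Cd28, Mir17hg, the interleukin-2 list, the 15 largest increases and decreases among calls without overlap whose higher group averaged at least 5 CPM, up to 5 called members of each list by p and 2 uncalled by level, and the 6 largest interactions each way. Not all of them are printed, and some are not reported here. Other list members and interaction values named outside this rule were chosen after their values were seen. Alternatives were RLE size factors, DESeq2 1.42.0, no filter, a mean of 5 CPM, only the libraries compared, the replicate block, a term for sex, a threshold of 0.01, a fold of 2 and each library left out. A block of replicate numbers within each genotype over naive and 24 h libraries was added after seeing the data. Promoter and microRNA sequences are from RefSeq, and 3' untranslated regions from GENCODE M21 for 20815 genes.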

Additional observations from a re-analysis of the deposited data

Results flagged for a closer look

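In each group of 4 stimulated libraries, the library farthest from the others was examined for every gene named above. Its gap to the nearest other library, divided by the range of the group, passed Dixon's 95% critical value for 4 samples in 31 of 458 gene groups, or 6.769%, where chance gives about 1 in 20. For CD28ko-labelled replicate 1 the ratio was 0.842 for Ccr8, 0.836 for Ikzf2, 0.906 for Il12rb1, 0.83 for Lef1, 0.908 for Osm, 0.894 for Plcg1 and 0.915 for Sspo. For CD28ko-labelled replicate 2 the ratio was 0.85 for Lrrc32, 0.867 for Maf and 0.99 for Mcm5. For CD28ko-labelled replicate 3 the ratio was 0.952 for Dgkz, 0.882 for Pdcd4 and 0.937 for Sh2d1a. For CD28ko-labelled replicate 4 the ratio was 0.905 for Batf, 0.899 for Ccl3, 0.886 for Ccl4, 0.863 for Junb and 0.839 for Rcan3. For wild-type replicate 1 the ratio was 0.855 for Bcl10, 0.916 for Eif4ebp1, 0.896 for Id2, 0.873 for Sspo, 0.843 for Tap1 and 0.858 for Tnrc6b. For wild-type replicate 2 the ratio was 0.906 for Irgm1. For wild-type replicate 4 the ratio was 0.936 for Asns, 0.887 for Bst2, 0.878 for Cd69, 0.868 for Drosha, 0.977 for E2f1 and 0.839 for Mcl1.

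Other genes stood out because the CD28ko-labelled minus wild-type difference was not the same in 2 settings, by the interaction test in edgeR. Between 24 h and naive cells the log2 change of that difference (24 h minus naive) was -4.59 for Il1a, -4.51 for Cth, -4.47 for Tbkbp1, -4.11 for Tbx21, -4.10 for Tmem35a and -3.56 for Ptpn5. On the positive side it was 4.14 for Fosb, 3.92 for Sspo, 3.69 for Nt5e, 3.59 for Gucy1a1, 3.31 for Pgpep1l, 1.57 for Foxp3, 1.46 for Lrrc32 and 1.42 for Nr4a1. With the difference of rescue minus T1792tg/tg cells taken away, it was -2.96 for Tbx21, -2.61 for Ube2l6, -2.56 for Tbkbp1, -2.29 for Tmem35a and -2.09 for Iigp1. Positive values were 2.86 for Fosb, 1.71 for Il7r, 1.68 for Ahnak, 1.66 for Maf, 1.31 for Sgk1 and 1.28 for Cd55.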

How the results depend on the processing

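The count of 7029 calls between stimulated CD28ko-labelled and wild-type cells stayed within 1.5 times under every alternative run, from 5560 at an adjusted p of 0.01 to 7848 in a fit of these 8 libraries alone. It was 5983 with a filter at 5 CPM, 7080 with RLE size factors, 7170 with DESeq2 and 7066 with a term for sex. Each library left out in turn gave 6459 to 6699 calls, 1188 to 1366 beyond 1.5-fold and 528 to 544 called list memberships of 561. The 1395 calls beyond 1.5-fold became 960 with a filter at 5 CPM, 996 with DESeq2 and 1625 in a fit of these 8 libraries alone. With a fold of 2 in place of 1.5, 478 genes were called. The naive comparison gave 956 calls in a fit of its libraries alone and 1170 to 2188 with a library left out, against 2015. The interaction with state gave 5498 to 5843 of 5905, and rescue against T1792tg/tg cells 2971 to 4154 of 4426. The difference between the pairs was the least steady, with 929 calls in a fit of its libraries alone, 518 with DESeq2 and 119 to 447 with a library left out, against 288. The cause of these moves was not tested.

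Of 208 named genes called at 24 h, 5 lost the call in some alternative: Il2ra, Cdc25b and the B cell markers Cd79a, Cd79b and Fcer2a. Of 21 named genes not called, 7 gained a call in some alternative. In a fit of the 8 libraries alone these were Cblb, Icos, Rel, Lef1 and Stat4 (adjusted p from 0.00183 to 0.0179) beside Irf4, Lef1 was also called with a filter at 5 CPM (adjusted p = 0.025), and Il4 without wild-type replicate 4. Cd4, which was not called, had log2 fold changes of -0.146 to 0.009 with a library left out, the highest without wild-type replicate 4. The median of the CD28 family list turned positive with a filter at 5 CPM (0.009), in a fit of these libraries alone (0.015) and without CD28ko-labelled replicate 3 (0.002), and without CD28ko-labelled replicate 2 more of its members rose (8) than fell (7). That of the TNF receptor family turned negative with a term for sex (-0.009), without CD28ko-labelled replicate 4 (-0.041) and without wild-type replicate 2 (-0.016). That of the helper lineage list was also negative with no filter (-0.001) and without wild-type replicate 1 (-0.031).

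The replicate numbers of the titles did not pair CD28ko-labelled with wild-type libraries (correlations of deviations from -0.121 to 0.056 for equal numbers), and CD28ko-labelled replicate 2 correlated more with wild-type replicate 1 (0.172). The replicate block gave 7032 calls in place of 7029, of which 6953 were shared. Within a genotype, naive and 24 h libraries of equal number had correlations of 0.025 to 0.114 in CD28ko-labelled and 0.122 to 0.342 in wild-type cells, and the labels do not state whether equal numbers share a mouse. A replicate block within each genotype, an alternative chosen after seeing the data, gave 5756 interaction calls in place of 5905, of which 5682 were shared, and changed no call of the 15 named genes.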
